A study of Homo sapiens with 4 samples.

Results

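The genes described here are 8 cyclins and 2 cyclin-dependent kinases (CDKs) of the cell division cycle, 10 genes of the 21469 measured. They were taken from the deposited expression table by gene symbol, as rows that the platform annotation gives exactly 1 symbol, and each of the 10 had 1 row. They are the D-type cyclins CCND1, CCND2 and CCND3, the E-type cyclins CCNE1 and CCNE2, the A-type cyclin CCNA2, the B-type cyclins CCNB1 and CCNB2, and the kinases CDK1 and CDK2. RNA came from U2OS, an established human osteosarcoma line, and each sample was hybridised to 1 Affymetrix Human Transcriptome Array 2.0. All samples were first held back by 24 h without serum and 24 h with thymidine, which stops DNA replication, and then had 3 h without drug. They then received for 48 h either the solvent DMSO (2 arrays, replicates 2 and 3) or nocodazole, a drug that depolymerises microtubules (2 arrays, replicates 2 and 3). The sample titles add the name PLKO.1, which the labels leave unexplained. The series title asks about cells after slippage, the exit from a drug-held mitosis without division, and the comparison of nocodazole with DMSO bears on the cyclins of those cultures.

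A CDK is active only when bound to a cyclin, and the cyclins follow each other through the cycle. D-type cyclins act with CDK4 and CDK6 in G1 and are induced by growth signals. Cyclin E acts with CDK2 at entry into S phase, cyclin A with CDK2 in S phase and with CDK1 in G2, and cyclin B with CDK1 in mitosis. The anaphase-promoting complex, a ubiquitin ligase, destroys the cyclin A and cyclin B proteins in mitosis, and slow loss of cyclin B protein lets arrested cells slip. The RNA of CCNA2, CCNB1, CCNB2 and CDK1 peaks in G2 and mitosis of cycling cells. Arrays measure RNA, so nothing here bears on the cyclin proteins.

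Values are log2 expression. As deposited, the median over all genes was 6.38 and 6.06 on DMSO replicates 2 and 3 and 5.87 and 5.68 on nocodazole replicates 2 and 3, so that the median gene was lower by 0.45 with nocodazole. Unless another scale is named, levels and changes are therefore those after quantile normalization of the 4 arrays, where the median change of all genes was 0.00. A change is nocodazole minus DMSO on the log2 scale, with limma's standard error (SE), and a gene was called at a Benjamini-Hochberg adjusted p under 0.05 over all genes. The 23 antigenomic probe rows, which match no human sequence, had medians of 3.72 to 4.81 as deposited and served as the background of each array. All 10 members lay above it on all 4 arrays. The mesenchymal and osteoblast markers fixed for the check of the cell line were above background in 9 of 9 cases on every array, while PTPRC, KRT20 and KDR, markers of blood, epithelial and endothelial cells, were below it on all 4. Of 5 epithelial and 5 measured haematopoietic markers, 4 each lay above background on each array, and of 4 endothelial markers 2 or 3. The log2 of the summed deposited level of the 9 mesenchymal and osteoblast markers was 12.08 and 12.29 with DMSO and 11.26 and 11.40 with nocodazole. For the epithelial markers it was 7.67 to 8.03 with DMSO and 7.30 to 7.51 with nocodazole, and for the haematopoietic ones 7.03 to 7.58 and 6.70 to 7.06. For the endothelial ones it was 6.90 to 7.59 and 6.58 to 6.92, and the part of these shifts in the results was not tested.

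With nocodazole, CCNA2 was the only 1 of the 10 genes called, and it was lower. Of all genes 0.0978% were called lower (21 of 21469) and 0.191% higher. CCNA2 stood at 58.4% of its DMSO level, CCNE2 at 60.0%, CCNB2 at 61.7% and CDK1 at 68.8%, and CCNB1 at 77.3%. CCND1, CCNE1 and CDK2 stood at 87.2% to 89.3%, CCND3 at 99.0% and CCND2 at 130.2%. The members' median change was -0.28, against 0.00 over all genes. The median of the 9 mesenchymal and osteoblast markers was as low, at -0.30, and 0 of the 9 were called. Of these markers 7 had values under 0, the lowest being COL1A1 (a collagen chain) at -0.66 and SPARC (a matrix protein) at -0.63. The other 2, ALPL and COL1A2, were above 0, at 0.43 and 0.07. In bulk RNA, fewer cells that express a gene and less of its RNA per cell cannot be told apart. As deposited, 9 of the 10 were called lower, and 24.9% of all genes were called lower on that scale. After each array was instead centred on the median of its non-control rows, 0 of the 10 were called, and 0.00466% of all genes were called lower. There 2 of the 10, CCNE2 and CCNB2, were lower at an unadjusted p under 0.05, as were 3.01% of all genes. After quantile normalization that number was 5 of the 10, against 5.05% of all genes.

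**Figure D1:**
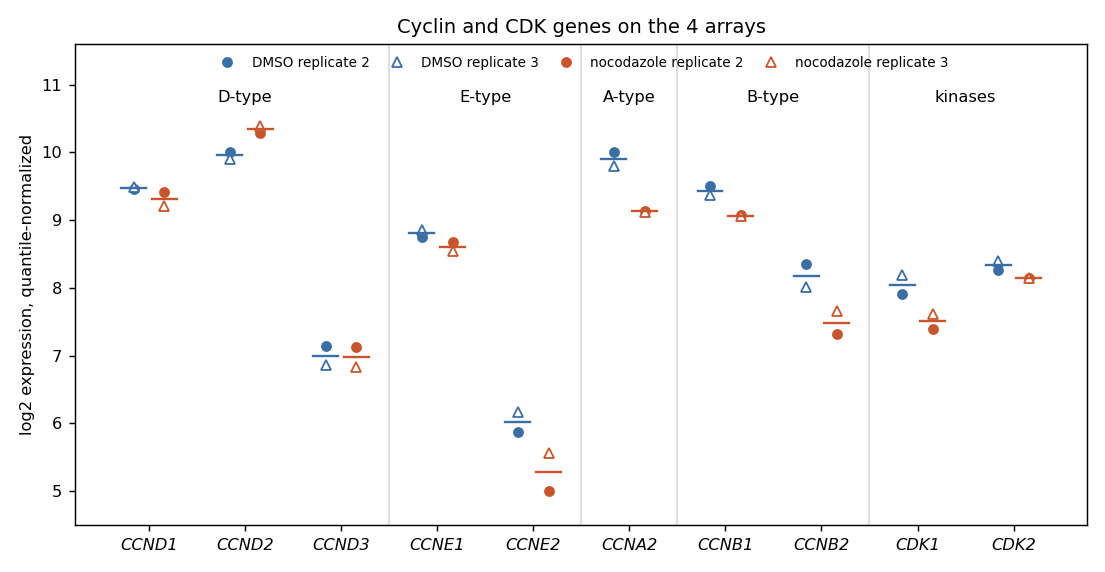
Quantile-normalized log2 expression (vertical axis) of the 10 genes (horizontal axis, in cyclin classes) on each of the 4 arrays: blue for DMSO, orange for nocodazole, circles for replicate 2, triangles for replicate 3, short lines for group means (n = 2). CCNA2 sits at 10.01 and 9.80 with DMSO and at 9.14 and 9.13 with nocodazole, while the CCND3 groups overlap.

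CCNA2 encodes cyclin A2, the partner of CDK2 in S phase and of CDK1 in G2. Its level was 10.01 and 9.80 on DMSO replicates 2 and 3, and 9.14 and 9.13 on nocodazole replicates 2 and 3. Both nocodazole arrays were below both DMSO arrays, by 0.67 at the nearest, and 18.7% of all genes had the arrays in that order. The change was -0.78 ± 0.11 (SE, n = 2 per group; limma adjusted p = 0.0479, 95% interval -1.03 to -0.53). As deposited the levels were 10.17 and 10.10 against 8.80 and 8.95, a change of -1.26 (limma adjusted p = 4.53e-06). The call after quantile normalization was close to the threshold: with the replicate number as a block the limma adjusted p was 0.0596, and without a trend of variance with level it was 0.217. After median centring the change was -0.84 with a limma adjusted p of 0.9998. The arrays of a group lay further apart on that scale, with an SD of 0.26 for DMSO and 0.31 for nocodazole. As deposited the SD was 0.04 and 0.11 (n = 2 per group). When any 1 of the 4 arrays was left out, the change of CCNA2 was -0.88 to -0.68. Of all genes, 0.657% had a change as low as that of CCNA2 or lower.

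The B-type cyclins, the partners of CDK1 in mitosis, both had values under 0 and neither was called. CCNB1, which encodes cyclin B1, had a level of 9.50 and 9.38 on DMSO replicates 2 and 3 and of 9.08 and 9.06 on nocodazole replicates 2 and 3. The groups did not overlap, with the nocodazole arrays close together and below. Its change was -0.37 ± 0.10 (limma adjusted p = 0.257, 95% interval -0.61 to -0.13). CCNB2, which encodes cyclin B2, had a level of 8.35 and 8.02 with DMSO and of 7.31 and 7.66 with nocodazole. Its groups did not overlap either, and the arrays within each group lay further apart than those of CCNB1. Of all genes 18.7% had both nocodazole arrays below both DMSO arrays. Its change was -0.70 ± 0.17 (limma adjusted p = 0.195, 95% interval -1.08 to -0.31), and the step from DMSO to nocodazole was -1.04 between the arrays numbered 2 and -0.36 between those numbered 3. As deposited both genes were called lower, at -0.89 and -1.18 (limma adjusted p = 0.00019 and 8.01e-06), as were 24.9% of all genes.

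The kinases CDK1 and CDK2 were not called. CDK1, the kinase of mitotic entry, had a level of 7.90 and 8.19 on DMSO replicates 2 and 3 and of 7.40 and 7.61 on nocodazole replicates 2 and 3. The nocodazole arrays were both below the DMSO arrays. The change was -0.54 ± 0.15 (limma adjusted p = 0.249, 95% interval -0.88 to -0.20). CDK2, which acts with cyclins E and A around S phase, had a level of 8.26 and 8.40 with DMSO and of 8.14 and 8.15 with nocodazole. Here too the groups did not overlap, with a gap of 0.11, and 18.7% of all genes had both nocodazole arrays below both DMSO arrays. The change was -0.18 ± 0.11 (limma adjusted p = 0.728, 95% interval -0.45 to 0.08). As deposited the changes were -1.04 and -0.71, both called lower (limma adjusted p = 4.06e-05 and 0.000993), as were 24.9% of all genes.

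The stretches of DNA just before the starts of CCNA2, CCNB1, CCNB2 and CDK1 are shown because these genes of G2 and mitosis all had values under 0. In such genes a CHR element, bound by the DREAM and MuvB complexes, and CCAAT boxes, bound by NF-Y, are known to set expression by cell cycle phase. Capitals mark letters found by search on both strands: the CCAAT box, which reads ATTGG where it lies on the opposite strand, and CHR-like words. Of the latter the search took TTTGAA as the usual form, with TTCGAA as the second and CTTGAA as the third. Each line holds the 120 bases before the RefSeq gene start, 5′ to 3′ on the strand of the gene, in build GRCh38.p14, and of the 2 CDK1 starts in the table the downstream one is given.
CCNA2, chr4:121823884-121824003, minus strand: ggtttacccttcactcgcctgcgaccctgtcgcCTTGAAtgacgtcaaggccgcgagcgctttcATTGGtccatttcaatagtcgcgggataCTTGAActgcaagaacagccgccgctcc
CCNB1, chr5:69167030-69167149, plus strand: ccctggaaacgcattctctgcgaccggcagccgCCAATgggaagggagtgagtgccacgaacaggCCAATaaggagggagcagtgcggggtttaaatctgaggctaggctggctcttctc
CCNB2, chr15:59105026-59105145, plus strand: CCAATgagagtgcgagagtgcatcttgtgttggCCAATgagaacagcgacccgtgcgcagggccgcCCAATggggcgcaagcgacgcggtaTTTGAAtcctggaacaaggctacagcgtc
CDK1, chr10:60778358-60778477, plus strand: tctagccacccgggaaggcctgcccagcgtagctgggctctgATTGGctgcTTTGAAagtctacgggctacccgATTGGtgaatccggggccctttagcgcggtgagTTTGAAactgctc

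The CCNA2 stretch held CTTGAA with its first base 87 and 28 bases before the start, and a CCAAT on the opposite strand 56 bases before it. The CCNB1 stretch held CCAAT 87 and 55 bases before the start and none of the CHR-like words searched. Other forms of a CHR element were not searched for. The CCNB2 stretch held CCAAT 120, 87 and 54 bases before the start and TTTGAA 29 bases before it. The CDK1 stretch held CCAAT on the opposite strand 78 and 46 bases before the start and TTTGAA 69 and 13 bases before it. Thus 3 of the 4 held both kinds of word searched, CDK1 only at the start shown. The length of the stretches was set after these matches were seen. The shares over all stretches are therefore given as a description and do not measure enrichment. Over all 35116 stretches of this length in the table, 2.1% held both kinds, 9.7% held a CHR-like word, 20.4% held CCAAT, and 0.638% held CCAAT 3 or more times. The search also covered the E2F-like words TTCCCGC and TTGGCGC, which 4.14% of all stretches hold, and none of these 4 did. The upstream CDK1 start held TTGGCGC, 28 bases before it, and no CCAAT or CHR-like word. The CCNE1 stretch held none of the words searched, and of the 3 starts of CCND3 the stretch of 1 held a CCAAT, 64 bases before it. In all, 6 of the 10 genes had stretches in this search, which left out any member entry on the chromosome of CCNE2. Stretches of that chromosome were kept among the 35116. A match of letters is a description of the stretch and does not show binding in these cells.

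The E-type cyclins, partners of CDK2 at entry into S phase, had values under 0 of unlike size. CCNE1, which encodes cyclin E1, had a level of 8.76 and 8.86 on DMSO replicates 2 and 3 and of 8.68 and 8.54 on nocodazole replicates 2 and 3. The nocodazole arrays were below the DMSO arrays by a gap of 0.08. The change was -0.20 ± 0.11 (limma adjusted p = 0.680, 95% interval -0.46 to 0.06). CCNE2, which encodes cyclin E2, had a level of 5.86 and 6.17 with DMSO and of 5.01 and 5.56 with nocodazole. Its groups did not overlap, and nocodazole replicate 2 was the lowest array. Both nocodazole arrays were below both DMSO arrays for 18.7% of all genes. The change was -0.74 ± 0.22 (limma adjusted p = 0.305, 95% interval -1.25 to -0.22), the second most negative of the members and the one with the widest interval. CCNE2 was the dimmest of the members, as little as 0.57 above the background median as deposited. As deposited both were called lower, at -0.71 for CCNE1 and -1.18 for CCNE2 (limma adjusted p = 0.001 and 0.0037), as were 24.9% of all genes.

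The D-type cyclins, which couple growth signals to CDK4 and CDK6, did not share a direction. CCND1, which encodes cyclin D1, had a level of 9.45 and 9.50 on DMSO replicates 2 and 3 and of 9.42 and 9.21 on nocodazole replicates 2 and 3. The nocodazole arrays were both below, as for 18.7% of all genes, with a gap of 0.04 to the nearest DMSO array. The change was -0.16 ± 0.11 (limma adjusted p = 0.770, 95% interval -0.42 to 0.09). CCND2, which encodes cyclin D2, had a level of 10.01 and 9.91 with DMSO and of 10.28 and 10.39 with nocodazole. It was the 1 member with both nocodazole arrays above both DMSO arrays, as were 17.7% of all genes. Its change was 0.38 ± 0.10, which was not called (limma adjusted p = 0.229, 95% interval 0.16 to 0.61). As deposited its values were 10.17 and 10.22 with DMSO against 9.98 and 10.24 with nocodazole, groups that overlap, and the change was -0.086 (limma adjusted p = 0.696), so its direction depends on the scale. CCND2 was the 1 member not called lower as deposited, where 24.9% of all genes were called lower. CCND3, which encodes cyclin D3, had a level of 7.14 and 6.86 with DMSO and of 7.13 and 6.84 with nocodazole. Its groups overlapped almost fully. The change was -0.01 ± 0.16 (limma adjusted p = 0.996, 95% interval -0.39 to 0.36), and as deposited it was -0.49 (limma adjusted p = 0.0491).

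**Figure D2:**
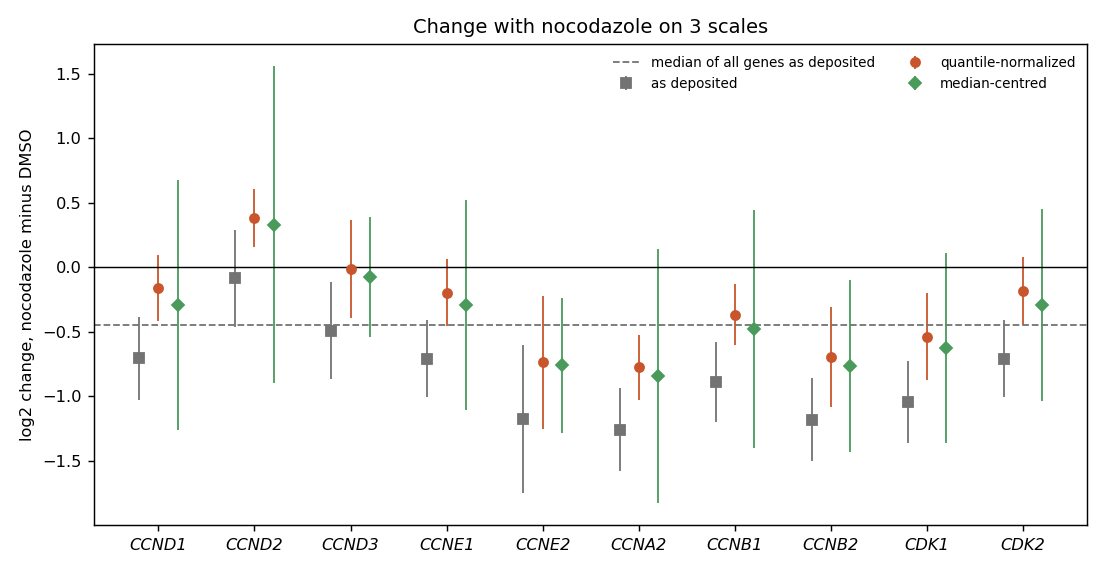
Change with nocodazole on the log2 scale (vertical axis) of the 10 genes (horizontal axis) as deposited (grey squares), after quantile normalization (orange circles) and after median centring (green diamonds); bars are limma's 95% intervals and the dashed line is the median change of all genes as deposited, -0.45. CCNA2, CCNE2, CCNB2 and CDK1 are the lowest on each scale, and CCND2 is the highest on each.

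By class, the mean change was 0.07 for the 3 D-type cyclins of G1, -0.47 for the 2 E-type cyclins of the entry into S phase, -0.78 for CCNA2 and -0.53 for the 2 B-type cyclins of mitosis. The classes were not uniform. The range was -0.16 to 0.38 within the D-type, -0.74 to -0.20 within the E-type and -0.70 to -0.37 within the B-type. As deposited the means were -0.43, -0.94, -1.26 and -1.04, and after median centring -0.01, -0.53, -0.84 and -0.62, in the same order on the 3 scales. After quantile normalization 8 of the 10 genes had both nocodazole arrays below both DMSO arrays, as did 18.7% of all genes. As deposited it was 9 of the 10 and 66.3% of all genes, and after median centring 5 of the 10 and 15.5%. The share of all genes with a change as low or lower was 0.834% for CCNE2, 1.04% for CCNB2, 2.55% for CDK1 and 6.46% for CCNB1. It was 17.7% for CCNE1, 19.0% for CDK2, 21.3% for CCND1, 46.6% for CCND3 and 94.4% for CCND2.

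**Figure D3:**
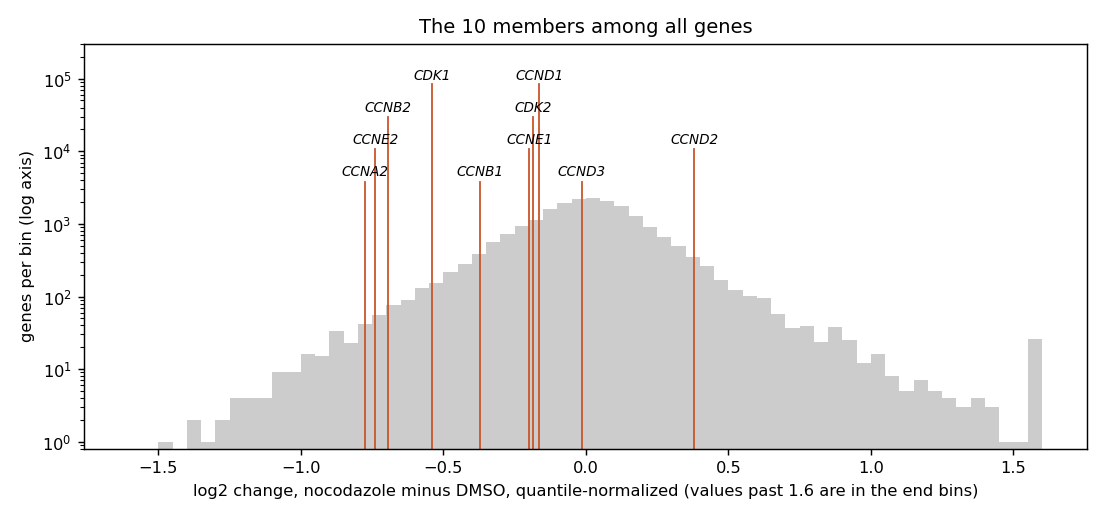
Number of genes per bin of 0.05 (vertical axis, log scale) by change with nocodazole after quantile normalization (horizontal axis), with the 10 members as lines. CCNA2, at -0.78, and CCNE2, CCNB2 and CDK1 lie in the lower tail, CCND3 lies near the middle at -0.01, and CCND2 lies above it at 0.38.

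A difference between 2 members within an array does not move when a constant is added to all values of that array, so it is the same as deposited and after median centring. The level of one row cannot be set against that of another, but the change of such a difference describes how unlike 2 genes moved on these arrays. Differences between arrays that depend on level are not removed. For CCNA2 minus CCND2 the difference as deposited was 0.00 and -0.12 on DMSO replicates 2 and 3, and -1.18 and -1.29 on nocodazole replicates 2 and 3, a change of -1.17. The 2 groups stood far further apart than the arrays within a group. CCNA2 and CCND2 are the members with the lowest and the highest change, so a wide gap follows from the choice of this pair. For CCNB1 minus CCND2 the differences were -0.47 and -0.51 with DMSO and -1.23 and -1.36 with nocodazole, a change of -0.81. For CCNA2 minus CCNB1 they were 0.47 and 0.39 with DMSO and 0.05 and 0.07 with nocodazole, a change of -0.37, so that the difference was smaller on both nocodazole arrays than on either DMSO array. For CCND1 minus CCND2 they were -0.51 and -0.38 against -0.92 and -1.21, a change of -0.62.

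Pairs within a class and pairs of a cyclin with its kinase are given the same way. CCNE2 minus CCNE1 was -2.71 and -2.92 with DMSO and -3.43 and -3.14 with nocodazole, a change of -0.47. CDK1 minus CDK2 was -0.35 and -0.21 with DMSO and -0.68 and -0.56 with nocodazole, a change of -0.34. In both cases the nocodazole arrays lay below the DMSO arrays. CCNB1 minus CCNB2 was 1.13 and 1.41 with DMSO and 1.67 and 1.45 with nocodazole, a change of 0.29, with the nocodazole arrays above. CCNB1 minus CDK1, the 2 subunits of the mitotic kinase, was 1.56 and 1.23 with DMSO and 1.59 and 1.504 with nocodazole, so that the groups overlapped. CCND3 minus CCND2 also overlapped as deposited, at -2.75 and -3.20 against -3.07 and -3.69. The mean of the B-type cyclins minus that of the D-type was 0.05 and -0.02 with DMSO and -0.74 and -0.45 with nocodazole. The mean of the B-type minus that of the E-type cyclins was 1.53 and 1.296 with DMSO and 1.27 and 1.37 with nocodazole, and these groups overlapped. These differences were not tested; with 2 arrays per group an exact two-sided permutation test gives no p below 0.333.

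**Figure D4:**
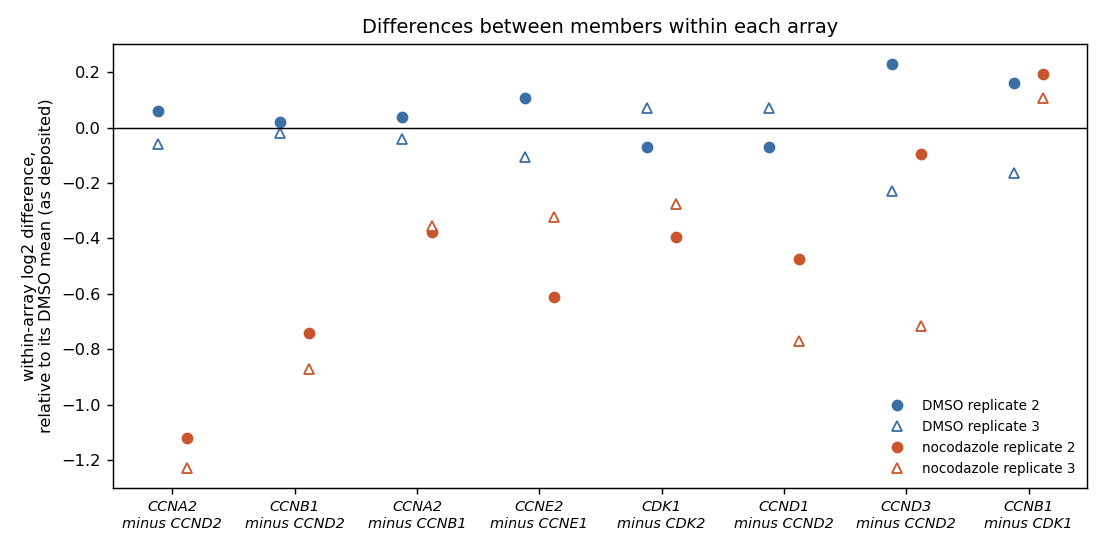
Difference between 2 members within each array, as deposited on the log2 scale and relative to its own DMSO mean (vertical axis), for 8 pairs of genes (horizontal axis), with colours and symbols for array group and replicate. For CCNA2 minus CCND2, the members with the lowest and the highest change, the nocodazole arrays lie over 1 below the DMSO arrays. CCNB1 minus CDK1 overlaps between the groups.

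Other genes of the cyclin and CDK system gave 0 calls in either direction in any of 6 lists by limma after quantile normalization, where 62 of all genes, 0.289%, were called and 9.38% had an unadjusted p under 0.05. As deposited 7 of 21 other cyclins, 10 of 16 other CDKs and 18 of 22 transcription factors of cyclin genes were called lower, where 24.9% of all genes were. Among the 21 other cyclins the median change was 0.03, and 8 had values under 0. CCNF, which encodes a cyclin-like F-box protein of G2 that is the substrate receptor of a ubiquitin ligase and binds no CDK, had the smallest adjusted p of them. Its level was 8.61 and 8.66 with DMSO and 7.96 and 8.05 with nocodazole, a change of -0.63 ± 0.11 (limma adjusted p = 0.0786). Next came CCNI, which encodes the atypical cyclin I, at -0.27 ± 0.13 (limma adjusted p = 0.596). CCNC, CCNH, CCNK, CCNL1, CCNL2, CCNT1 and CCNT2, the cyclins of transcription kinases and of splicing, had changes of -0.18 to 0.21.

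Among the 16 other CDKs the median change was -0.12. CDK4, the G1 partner of the D-type cyclins, had a level of 9.60 and 9.77 with DMSO and of 9.24 and 9.45 with nocodazole, a change of -0.34 ± 0.12 (limma adjusted p = 0.386), and CDK6, its relative, one of -0.11. CDK19, a kinase of the Mediator complex, had a change of -0.41 ± 0.15 (limma adjusted p = 0.415). Among the 6 genes of CDK-activating phosphatases and CDK subunits the median was -0.13. CDC25C and CDC25B, phosphatases that activate CDK1 at mitotic entry, had changes of -0.55 ± 0.15 and -0.37 ± 0.12 (limma adjusted p = 0.249 and 0.383). As deposited 4 of these 6 were called lower, beside 24.9% of all genes.

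The 10 measured genes of CDK inhibitors and inhibitory kinases had a median of -0.12 and values on both sides. CDKN3, a phosphatase that acts on CDK2, had a change of -0.76 ± 0.17 (limma adjusted p = 0.146). CDKN1A, which encodes the CDK inhibitor p21, had a level of 8.43 and 8.25 with DMSO and of 8.88 and 8.69 with nocodazole, a change of 0.45 ± 0.12 (limma adjusted p = 0.261) that was -0.066 as deposited. After quantile normalization both nocodazole arrays were above both DMSO arrays for CDKN1A, as for 17.7% of all genes. As deposited 4 of the 10 were called lower, beside 24.9% of all genes.

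The 26 measured genes of the ubiquitin ligases that destroy cyclins and their partners had a median of -0.03, and 20 were called lower as deposited, where 24.9% of all genes were. SKP2, the substrate receptor that marks the CDK inhibitor p27 for destruction, had the largest change in size of this list, -0.83 ± 0.14 (limma adjusted p = 0.067). Its level was 8.99 ± 0.22 with DMSO and 8.16 ± 0.11 with nocodazole (SD, n = 2). CDC20, which activates the anaphase-promoting complex in mitosis, had a change of -0.51 ± 0.10 (limma adjusted p = 0.0962). Of the 22 transcription factors of cyclin genes, 19 had values under 0, with a median of -0.19 against 0.00 over all genes. After quantile normalization 0 of the 22 were called. MYBL2 and FOXM1, which drive genes of G2 and mitosis with the MuvB complex, had changes of -0.55 ± 0.09 and -0.52 ± 0.10 (limma adjusted p = 0.0711 and 0.108). When genes below background on 3 or 4 arrays were left out, SKP2 and MYBL2 were called lower (limma adjusted p = 0.0386 and 0.0462).

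**Figure D5:**
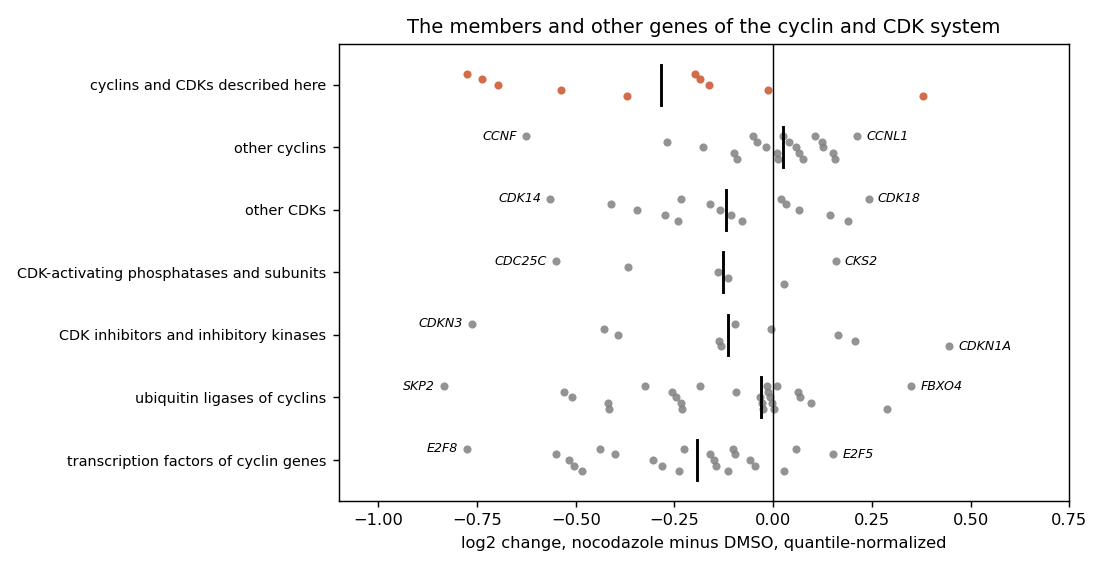
Change with nocodazole after quantile normalization (horizontal axis) of each gene (points) in the 10 members (orange, top row) and in 6 lists of other cyclin and CDK system genes (grey), with the list medians as black lines; vertical scatter within a row has no meaning. The members' median is -0.28 and the medians of the other lists lie between -0.19 and 0.03; the lowest and highest gene of each list is named.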

How the data were processed

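The authors deposited log2 expression values, 1 column per array, made with RMA (robust multi-array average) in Partek 7.0 on build hg19, per the submitters' processing notes (settings: not given in the sources used here). RMA output and the spread of the values gave the log base. Of 65535 rows, 1530 control rows were left out. Rows with exactly 1 symbol in the platform annotation were kept, 21771 in all, and each of 21469 genes was represented by its brightest row, judged by the mean of all arrays. Of these rows 19683 matched RefSeq by Entrez identifier, with 0 symbols changed. Arrays were quantile-normalized over this table (normalizeQuantiles), and limma 3.58.1 in R 4.3.3 was fitted to all genes (lmFit, eBayes with trend, two-sided, Benjamini-Hochberg, threshold 0.05). The steps were tested on simulated data. The number of arrays, 2 per group, limits the precision. Replicates are called biological in the series text. The genes, lists and tests were chosen with earlier results of these data known. Genes named from the other lists were those called and the 2 with the smallest adjusted p of each; CDK6, the cyclins of transcription and splicing, and the extreme genes on the plot of lists were added after their values were seen. Promoter stretches are from RefSeq, GRCh38.p14, and their length was set after the matches were seen. Alternatives tried were the deposited and median-centred scales, quantile normalization over all non-control rows, a replicate block, other variance models, removal of dim genes, the mean of a gene's rows, and removal of each array.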

Additional observations from a re-analysis of the deposited data

How the results depend on the processing

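With 4 arrays, limma called 62 genes after quantile normalization, 41 higher and 21 lower (66.1% higher). It called 5392 as deposited, 5341 of them lower (0.946% higher), and 20 after median centring, 19 higher and 1 lower (95% higher). It called 37 with a replicate block (26 and 11), 10 without a trend of variance (10 and 0) and 139 without dim genes (73 and 66). Of the 10 cyclin and CDK genes 1 was called, CCNA2. As deposited 9 were called, and 0 after median centring, after quantile normalization over all non-control rows (CCNA2 limma adjusted p = 0.0583), with a replicate block or without a trend of variance; 5, 5 and 5 of them had an unadjusted p under 0.05 and a value under 0 in the last 3 fits and 2 after median centring, as did 1167, 1657, 975 and 647 of all genes. Without any 1 array, 0 genes were called in all and 0 of the 10, with 1169 to 1515 of all genes at an unadjusted p under 0.05; 601 to 857 of all genes and 2 to 5 of the 10 were at such a p with a value under 0; in those fits the lone array is assumed to vary like the other group. The change of CCNA2 ran from -1.26 to -0.68 over the 12 alternatives and that of CCNB1 from -0.89 to -0.31. CCND2 went to -0.086 and CDKN1A to -0.066 as deposited, and CCND3 ran from -0.17 to 0.13 when 1 array was left out, at 0.13 both without DMSO replicate 2 and without nocodazole replicate 3; the causes were not tested. Apart from these, no value of the 10 genes changed sign. Deviations of arrays with the same replicate number from their group means correlated at 0.22 across genes (0.41 as deposited), over 2 pairs, and the labels give no shared source for a number.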

Other observations

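The 5 genes whose values over the 4 quantile-normalized arrays, each centred on its own mean, lay nearest to those of CCNA2 by Euclidean distance were CPA4, TLCD4, NDC80, TRIB2 and LINC00392, at distances of 0.05 to 0.09. CPA4, which encodes a carboxypeptidase, had a level of 9.87 and 9.63 on DMSO replicates 2 and 3 and of 9.03 and 8.97 on nocodazole replicates 2 and 3, a change of -0.75 (limma adjusted p = 0.0566). NDC80, which encodes a kinetochore protein that binds microtubules, had a level of 9.13 and 8.999 with DMSO and of 8.23 and 8.27 with nocodazole, a change of -0.81 (limma adjusted p = 0.0382), and was the 1 of the 5 that was called. TLCD4 and TRIB2, the latter encoding a pseudokinase, had changes of -0.79 and -0.77. LINC00392, a non-coding RNA gene, had a change of -0.77 but lay at least 0.88 below the background median on all 4 arrays. Likeness over 4 arrays is a description of these arrays.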
